A study of Xenopus laevis with 13 samples.

Results

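Actins and the proteins that bind actin monomers are described here in *Xenopus laevis* by the mRNA of 10 gene names, which are actb, actg1, actc1, acta2, tmsb4x, pfn1, pfn2, cfl1, cfl2 and myl9. Every gene model that lists such a name among its candidate names was taken, which gave 36 gene models of 54110. The names were chosen by a reading of the same egg and embryo values, so the differences between embryos and eggs are given as a description of the members, with no test. The gene model file, which gives each model at most 1 name, uses a member name for 21 of the 36 models. It names 6 others as act3, rps9, rpl30, ipo5 or spcs2, and leaves 9 unnamed. The 21 models are 3 of actc1 and 2 of each other name, and are called copy A and copy B (and C for actc1) in the order of their scaffolds. *X. laevis* is an allotetraploid frog that carries many genes as a pair of related copies, and the RefSeq gene table (Xenopus_laevis_v10.1) lists 18 genes of these 10 names. Which RefSeq copy each model stands for was not determined.

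The study sequenced RNA of single fertilized eggs and gastrulae alongside proteomes, to ask how uniform expression is between single animals and how it changes in early development. The libraries comprise 5 single whole embryos of Nieuwkoop and Faber stage 10.5, an early gastrula, 3 technical libraries of the same stage, and 5 single whole eggs of stage 1, collected 60 min after fertilization and still uncleaved. The labels give no strain, genotype or treatment that sets the groups apart, and all eggs came from a single female treated with human choriogonadotropin and fertilized *in vitro*, so the spread between libraries does not cover differences between mothers. The technical libraries are labelled only as technical replicates of embryos. Libraries of embryos and of eggs were prepared with different kits and each stage was processed in parallel, so stage and preparation cannot be told apart. Levels are FPKM as deposited, reads per kilobase of transcript on a scale set for each library, which makes them comparable between genes of different length. Whether that scale reflects depth alone was not tested.

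Actin monomers polymerize into filaments that drive cortical contraction, cytokinesis and the cell movements of gastrulation. Thymosin beta-4 holds monomers in reserve, profilin feeds them to growing filament ends, and cofilin severs old filaments and returns monomers to the pool. A large egg stores maternal transcripts of these proteins for the rapid cleavages, and the embryo takes over transcription before gastrulation. Myosin regulatory light chain, the product of myl9, binds myosin and not actin monomers, and was listed with the group as part of the contractile machinery.

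The files hold no read counts, but low FPKM values fall on whole multiples of the value of 1 read, from which between 1297090 and 3679786 reads per embryo, between 677775 and 1103153 per technical library and between 1478019 and 2604264 per egg were recovered. Egg 5 stood apart, with 27.4% of its reads on the 5 most abundant gene models, against at most 1.38% in the other eggs and between 10.4% and 23.8% in embryos. As a check of the stage labels, 33 of 33 tested gene models of zygotic gastrula genes were higher in embryos, with a summed level of 3328 to 3863 FPKM in embryos against 1.11 to 5.31 FPKM in eggs. Of all 37 models of that list, 25 were at 0 in every egg. Such models could reach the minimum mean of 1 FPKM for testing only through embryos, so the count of 33 follows in part from that filter. Of 22 models of maternal egg genes, 11 were lower and 1 was higher in embryos (limma, adjusted p under 0.05). RNA was taken from whole animals, so fewer cells of a type and less RNA per cell cannot be told apart.

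All 4 gene models of the cytoplasmic actins actb and actg1, the building blocks of non-muscle filaments, were abundant in embryos and in eggs, and all 4 had lower means in embryos. The candidate names of actb copy B and of both actg1 copies include both actb and actg1. For these models, which is actb and which actg1 rests on the single name assigned to each. Actb copy A has sun2 as a further candidate name. Actb copy A, a spliced transcript of 1484 bases and 7 exons on the plus strand of scaffold 000026364 (4933379 to 4938086, assembly JGIv7b), was the most abundant named member at both stages. It had 483, 432, 684, 356 and 306 FPKM in the 5 embryos, against 734, 662, 514, 738 and 589 FPKM in the 5 eggs. The ranges overlapped through embryo 3, the highest embryo, and egg 3, the lowest egg. The log2 difference of FPKM + 1, embryo minus egg, was -0.56 (SE 0.22), and the means were 452 ± 147 and 647 ± 96.3 FPKM (SD, n = 5 each).

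Actb copy B, of 2113 bases on scaffold 000120240 (3192531 to 3197656), had 96.6, 107, 132, 71.3 and 68.7 FPKM in embryos, against 174, 148, 122, 195 and 143 FPKM in eggs. Only embryo 3 lay within the range of the eggs. The log2 difference was -0.74 (SE 0.21). Without embryo 3 every embryo was below every egg for both actb copies, and without egg 3 the same held for actb copy B.

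Of the actg1 copies, which encode gamma-actin, copy A differed less than copy B, whose difference was close to that of actb copy A. Copy A, with 3178 bases on scaffold 000007000 (647824 to 653291), had 266, 192, 256, 235 and 197 FPKM in embryos, against 348, 284, 207, 285 and 191 FPKM in eggs. The whole range of the embryos lay within that of the eggs, and the log2 difference of -0.18 was smaller than its SE of 0.19. Copy B, with 1182 bases on scaffold 000316503 (167140 to 171297), had 165, 114, 169, 165 and 107 FPKM in embryos, against 270, 236, 111, 216 and 222 FPKM in eggs. Egg 3 fell among the embryos, and without it every embryo was below every egg. The log2 difference of copy B was -0.51 (SE 0.25).

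**Figure D1:**
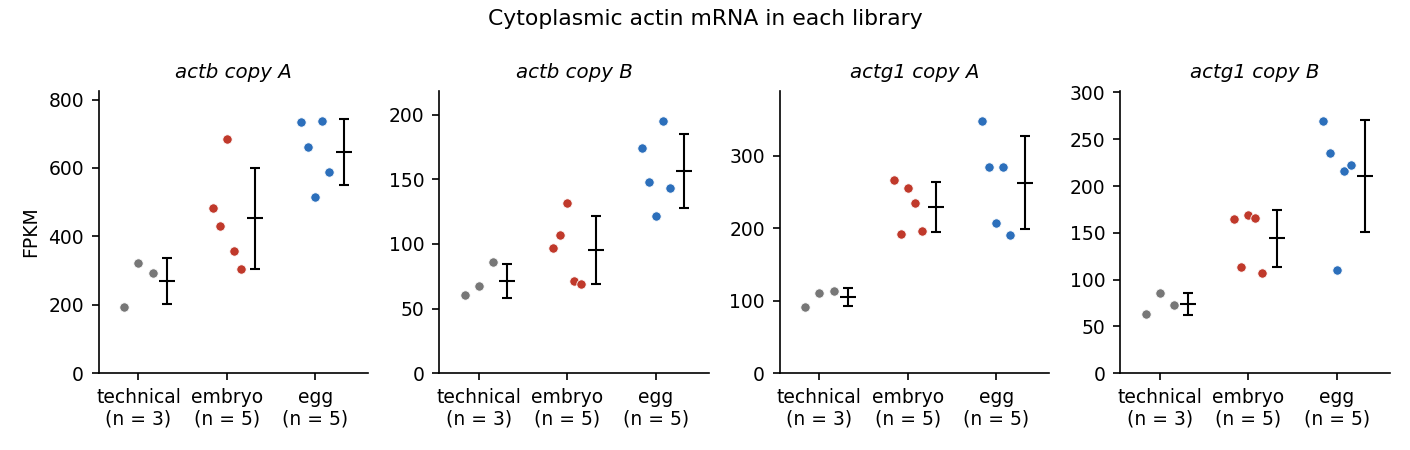
Level in FPKM (y axis of each panel, starting at 0) of the 4 gene models of actb and actg1 in 3 technical libraries, 5 embryos and 5 eggs. Each dot is a library, and the bar beside the dots gives the mean ± SD. The ranges of embryos and eggs overlap in all 4 panels, and both actg1 copies are below every embryo in the technical libraries.

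Summed over the 4 models, cytoplasmic actin mRNA came to 1011, 844, 1241, 828 and 679 FPKM in embryos, against 1526, 1330, 953, 1434 and 1145 FPKM in eggs. On the deposited scaling the embryo mean was 0.721 times the egg mean, with overlapping ranges. Actb copy A held between 43.0% and 55.1% of it in embryos and between 48.1% and 53.9% in eggs, and copy B held between 16.2% and 19.9% of the actb total in embryos and between 18.3% and 20.9% in eggs. Reads were short (single-end), and actin coding sequences are among the most alike of any gene family, so the split of reads between these 4 models is uncertain. Their sum is less exposed to that uncertainty.

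The actc1 and acta2 models, which stand for cardiac and smooth muscle actin, were at or near 0 in every library. Acta2 copy A had no read in any of the 13 libraries. Acta2 copy B had 2, 1, 0, 2 and 0 recovered reads in embryos and none in technical libraries or eggs. The 3 actc1 models had at most 2 reads in any embryo or egg, and copy B had 1, 1 and 3 reads in the technical libraries, against 1 read in embryo 1 and none in the other embryos. Copy B was left out of the tests by its low mean. Without that filter it passed as higher in technical libraries than in embryos (log2 difference +1.56, SE 0.24; limma adjusted p = 0.0354), on 5 reads against 1. Muscle markers were at 0 for most gene models. Of 67 gene models with a striated muscle marker name, 42 were at 0 in every embryo and 59 in every egg, and their summed level of 1183 to 2196 FPKM in embryos, against 1246 to 1623 FPKM in eggs, came mostly from 3 models that the gene model file names gapdh, ckb and perp. The gapdh model averaged 1041 FPKM in embryos and 694 FPKM in eggs, the ckb model 347 FPKM in embryos and 542 FPKM in eggs, and the perp model 149 FPKM in embryos and 218 FPKM in eggs. Of the 8 striated muscle models tested, 4 were higher and 3 lower in embryos (limma, adjusted p under 0.05). The higher ones are the models of the myogenic regulators myf5, with means of 17.9 and 18.4 FPKM in embryos and 0 FPKM in eggs, and myod1, with means of 14.6 and 8.25 FPKM in embryos and 1.32 and 0 FPKM in eggs. In the other direction, a model of the muscle gene tnnc2 averaged 0 FPKM in embryos and 4.62 FPKM in eggs, and the ckb and perp models also had lower means in embryos. Of 20 models with a smooth muscle marker name, 7 were at 0 in every embryo and 15 in every egg, with summed levels of 74.6 to 88.4 FPKM in embryos and 19.4 to 40.1 FPKM in eggs, and all 4 models tested were higher in embryos. The 2 smtn models among them averaged 41.5 and 25.7 FPKM in embryos and 17.4 and 10.4 FPKM in eggs. The rest were models of cnn1, with 6.56 and 3.75 FPKM in embryos and 1.05 and 0 FPKM in eggs. Muscle marker models at 0 in a stage could enter these tests only through the other stage. No other smooth muscle name had a model abundant enough to be tested. Over all gene models, 31.6% were higher and 25.2% lower in embryos.

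The gene models of tmsb4x, the main monomer-sequestering peptide of vertebrate cells, differed in opposite directions. The RefSeq table lists 1 tmsb4x gene only, and the FPKM table also lists ociad2 for copy B, so these models may not be a pair of copies of the same gene. Copy A, a model of only 258 bases in 2 exons on the minus strand of scaffold 000005895 (3094636 to 3095777), had 21.1, 0, 11.4, 14.3 and 14.7 FPKM in embryos, against 593, 385, 804, 354 and 247 FPKM in eggs. Every embryo was far below every egg, with 6, 0, 1, 2 and 3 reads in embryos against 102, 76, 123, 71 and 54 reads in eggs. The log2 difference was -5.58 (SE 0.73), and -4.78 without embryo 2, the embryo with no read. The merged profile gave -4.77. FPKM of so short a model depends strongly on the assumed fragment lengths, so its level is uncertain. Embryo and egg libraries were prepared with different kits, and the part of fragment lengths in its difference between the stages was not tested.

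Copy B, with 571 bases in 3 exons on the plus strand of scaffold 000337436 (704591 to 706366), had 51.9, 57.4, 54.7, 64.9 and 66.5 FPKM in embryos, against 7.55, 4.70, 19.4, 13.9 and 10.1 FPKM in eggs. Every embryo was above every egg. The log2 difference was +2.44 (SE 0.30), a mean 5.31 times as high in embryos. Copy B thus made up between 71.1% and 100% of the FPKM of both copies in embryos, and between 1.20% and 3.95% in eggs. The sum of both copies was 71.4 ± 9.78 FPKM in embryos and 488 ± 225 FPKM in eggs (SD, n = 5 each), with every embryo below every egg.

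The cfl1 copies, which encode the non-muscle cofilin, showed the same opposed pattern with far more reads. Copy A, of 593 bases on scaffold 000031469 (1247606 to 1255848, minus strand), had 40.1, 45.2, 53.5, 34.8 and 35.5 FPKM in embryos, against 268, 173, 269, 199 and 155 FPKM in eggs. Copy B, of 815 bases on scaffold 000146669 (181928 to 191676, plus strand), had 343, 329, 389, 317 and 241 FPKM in embryos, against 207, 203, 168, 206 and 132 FPKM in eggs. Neither copy overlapped between embryos and eggs, with copy A lower and copy B higher in embryos.

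The log2 difference was -2.30 (SE 0.20) for cfl1 copy A and +0.82 (SE 0.18) for copy B. Copy B held between 87.2% and 90.1% of the cfl1 FPKM in embryos and between 38.5% and 54.0% in eggs. On the deposited scaling the sum of the pair hardly moved, and its ranges overlapped throughout. It was 366 ± 59.8 FPKM in embryos and 396 ± 71.3 FPKM in eggs (SD, n = 5 each). In the technical libraries the sum was 197 ± 35.4 FPKM (SD, n = 3), below every embryo. The sum was not taken under the other scalings, and how surely short reads were split between the copies was not tested. Copy A shares 31 exonic bases with a gene model of the opposite strand, ccdc85b. Both library types are labelled as strand-specific, but whether the counting used the strand is not given in the sources used here. The sign of copy B depended on the scaling between libraries. It was +0.90 after median-of-ratios scaling and -0.50 where each library was rescaled to sum to 1000000, a scaling that moved the median of all gene models by -1.10 and turned myl9 copy A round as well, to -0.20. Relative to that shift both stayed positive.

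Cfl2, the cofilin best known from muscle, was read from copy A only (750 bases, scaffold 000203041). It had 4.63, 10.3, 4.09, 9.42 and 4.71 FPKM in embryos, from 3 to 11 reads, and 0 in all 5 eggs. Against a floor of 3 reads per library, which is 2.01 FPKM on average in eggs, the embryo mean was at least 3.30-fold higher. Copy B had no read in any library.

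**Figure D2:**
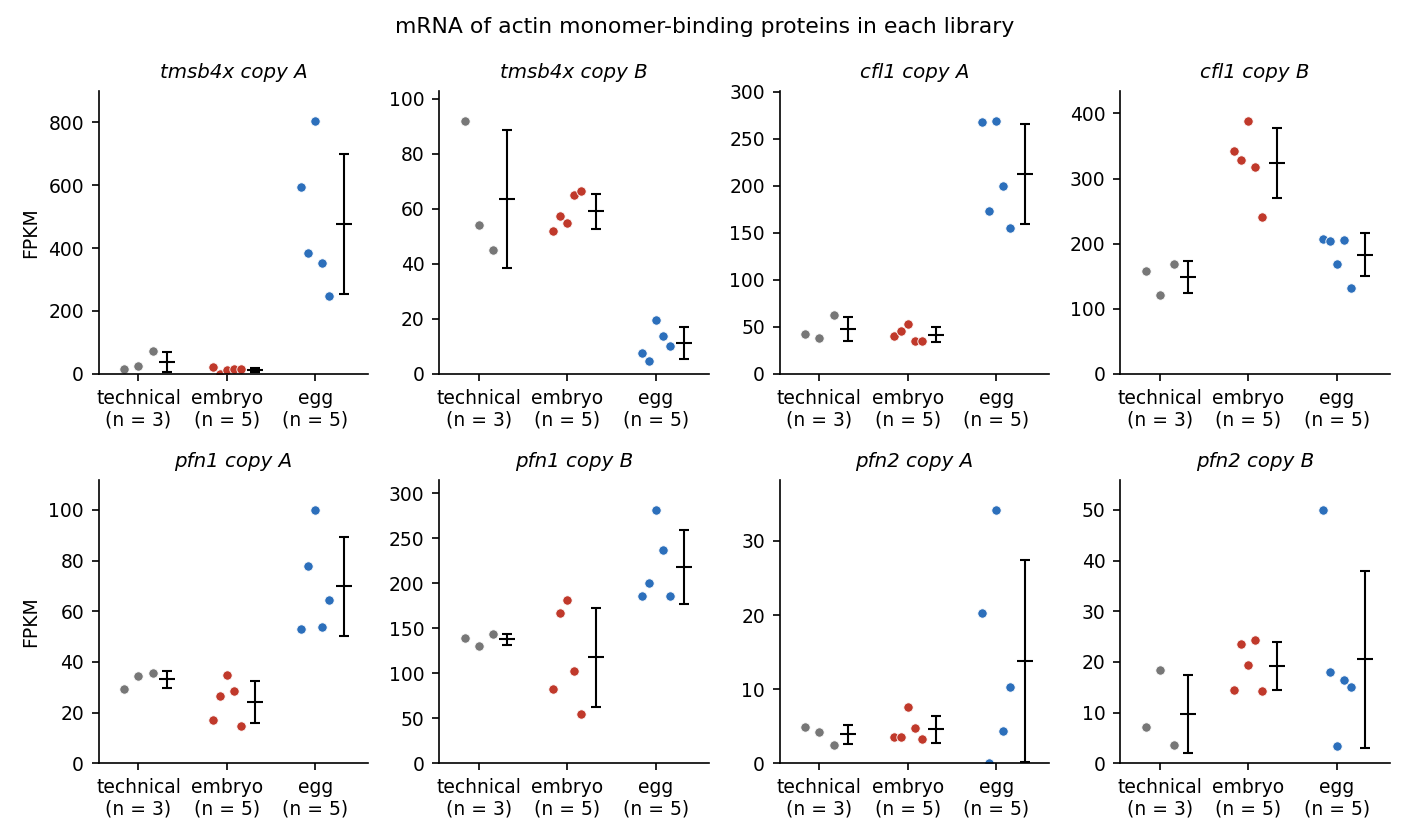
Level in FPKM (y axis of each panel, starting at 0) of the copies of tmsb4x, cfl1, pfn1 and pfn2 in 3 technical libraries, 5 embryos and 5 eggs. Each dot is a library and the bar gives the mean ± SD. Copies A and B of tmsb4x, and those of cfl1, sit in opposite orders between embryos and eggs, whereas both pfn1 copies are lower in every embryo than in every egg.

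Both copies of pfn1, the widely expressed profilin, were lower in every embryo than in every egg. Copy A, of 1592 bases on scaffold 000016004 (2071316 to 2077609), had 17.1, 26.4, 34.9, 28.3 and 14.6 FPKM in embryos, against 53.1, 77.9, 99.9, 53.7 and 64.2 FPKM in eggs. Copy B, of 684 bases on scaffold 000113187 (794502 to 799250), had 82.3, 167, 181, 102 and 54.2 FPKM in embryos, against 186, 201, 281, 237 and 186 FPKM in eggs. The gap was narrow for copy B, where the highest embryo had 181 FPKM and the lowest egg 186 FPKM. The log2 difference was -1.51 (SE 0.26) for copy A and -1.01 (SE 0.31) for copy B, and the pair summed to 142 ± 62.2 FPKM in embryos and 288 ± 56.1 FPKM in eggs (SD, n = 5 each).

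Pfn2, a profilin known mainly from nervous tissue, was low and scattered. The RefSeq table lists 1 pfn2 gene only, so its models too may not be a pair of copies of the same gene. Copy A had between 3.28 and 7.61 FPKM in embryos and between 0 and 34.2 FPKM in eggs, with a log2 difference of -0.67 (SE 0.78). Copy B had 14.5, 23.5, 19.3, 24.3 and 14.3 FPKM in embryos, against 49.97, 17.9, 3.31, 16.4 and 14.98 FPKM in eggs, with a log2 difference of +0.27 (SE 0.51). Neither difference exceeded its SE. The eggs were the scattered group, and egg 3 was at once the highest egg of copy A, with 30 reads, and the lowest of copy B, with 2 reads.

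The shares held by copy B of actb, actg1, pfn1, pfn2 and myl9 overlapped between embryos and eggs, and those of cfl1 and tmsb4x did not. For actg1 the overlap came from egg 3 alone, with copy B at 35.3% to 41.3% in embryos and at 43.1% to 53.8% in the other 4 eggs. For pfn1 copy A averaged 17.97% in embryos and 24.1% in eggs.

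**Figure D3:**
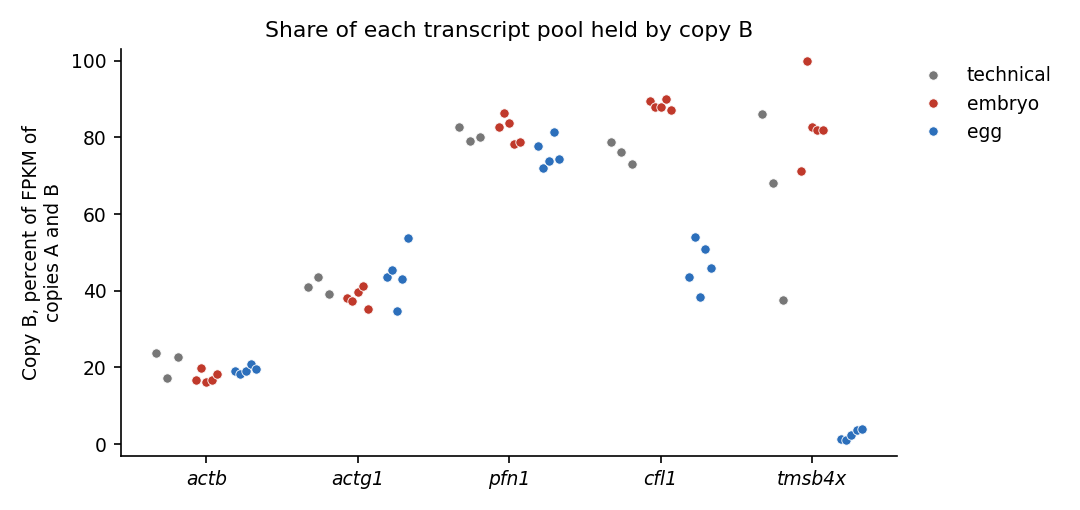
Share of the summed FPKM of copies A and B that copy B holds (y axis, percent) for actb, actg1, pfn1, cfl1 and tmsb4x, with a dot for each library of the technical, embryo and egg groups. For cfl1 the share is above 87% in every embryo and below 55% in every egg, and for tmsb4x it is above 71% in every embryo and below 4% in every egg. In the technical libraries it runs from 73.0% to 78.9% for cfl1 and from 37.7% to 86.2% for tmsb4x.

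The myl9 models had few reads. Copy A (1162 bases, scaffold 000050341) had 4.80, 5.88, 6.22, 5.37 and 9.06 FPKM in embryos, against 7.44, 1.44, 1.40, 2.84 and 3.89 FPKM in eggs. Egg 1 alone overlapped the embryos. Copy B was at 0 in 4 of 5 eggs, with 5 reads in egg 4, and had 19, 1, 1, 3 and 2 reads in embryos. Without egg 4 every embryo was above every egg, at a level near that of single reads. The log2 difference was +0.86 (SE 0.34) for copy A and +1.14 (SE 0.47) for copy B.

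The other 15 models were matched only because the FPKM table lists a member among their candidate names. Of these, 9 had a mean under 1 FPKM over embryos and eggs, and the 6 unnamed models under 60 bases were at 0 in all 13 libraries. An unnamed model of 1582 bases on scaffold 000017127, listed with tmsb4x, ociad2 and sec22b, had 41.4, 39.3, 38.4, 43.4 and 52.0 FPKM in embryos, against 8.63, 8.77, 11.97, 7.90 and 4.74 FPKM in eggs, a log2 difference of +2.26 (SE 0.21). Tmsb4x copy B, also higher in every embryo, shares the candidate name ociad2, and whether the 1582-base model and copy B are a pair was not determined. Models that the gene model file calls spcs2, a signal peptidase subunit, and rpl30, a ribosomal protein, were lower in every embryo than in every egg. The spcs2 model had 23.6, 18.97, 22.0, 26.4 and 25.7 FPKM in embryos, against 100.2, 85.6, 107, 95.3 and 82.1 FPKM in eggs (log2 difference -1.97, SE 0.15). The rpl30 model had 102, 74.4, 117, 73.96 and 110.3 FPKM in embryos, against 242, 206, 278, 148 and 217 FPKM in eggs (log2 difference -1.18, SE 0.20). The rps9 model, also of a ribosomal protein, overlapped between the stages, with 13.3, 12.9, 10.7, 10.05 and 13.8 FPKM in embryos, against 10.3, 11.4, 5.99, 8.07 and 14.0 FPKM in eggs (log2 difference +0.30, SE 0.22). The ipo5 model, of a nuclear import receptor, overlapped too (log2 difference -0.07, SE 0.21). The rpl30 and ipo5 models share 359 and 772 exonic bases with models of the opposite strand. These values say nothing firm about actin, thymosin, profilin or cofilin mRNA.

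An unnamed model of 486 bases on scaffold 000403120, listed with actc1, had the highest mean of all members in embryos and in eggs, although in egg 1 it was below actb copy A and tmsb4x copy A. It had 34472, 129913, 73638, 105301 and 34629 FPKM in embryos, against 433, 732, 1494, 1049 and 149141 FPKM in eggs. Egg 5 lay above every embryo and held 5.26% of its recovered reads on this model, against at most 0.0646% in the other eggs. The value of actc1 summed over all models with that name is therefore set by this model, and it was kept apart from the actins.

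Counted over the 21 models that averaged 1 FPKM or more over embryos and eggs, every embryo was above every egg in 4 and below every egg in 6, and 11 overlapped. Over all 19373 gene models that did so, the shares were 23.5% above and 18.3% below. Since these differences guided the choice of names, nothing was read from the counts. The median log2 difference was -0.18 for the 21 models, -0.51 for the 15 of them with a member name in the gene model file, and +0.12 for all gene models tested.

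The order of levels changed between the stages. In embryos actb copy A was followed by cfl1 copy B (mean 324 FPKM), actg1 copy A (229 FPKM), actg1 copy B (144 FPKM) and pfn1 copy B (117 FPKM). In eggs it was followed by tmsb4x copy A (477 FPKM), actg1 copy A (263 FPKM), pfn1 copy B (218 FPKM), cfl1 copy A (213 FPKM) and actg1 copy B (211 FPKM). Neighbours in these orders overlapped in their ranges, except that actg1 copies A and B were apart in embryos. Further down, actb copy B and tmsb4x copy B were apart in embryos, and in eggs pfn1 copy A was apart from both its neighbours, actb copy B and pfn2 copy B.

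Variation among libraries of single animals was compared by the CV, the SD over the mean, which also includes technical and counting noise. It had a median of 26.4% over 13 member models in embryos and of 26.6% over 12 in eggs, counting models that reached 1 FPKM in each library of the stage, against 25.5% over all such gene models in embryos and 29.8% in eggs. Single models differed widely. Tmsb4x copy B had a CV of 10.8% in embryos and 51.4% in eggs, where it rests on 5 to 16 reads, and pfn1 copy B had 46.7% in embryos and 18.8% in eggs. Actb copy A had 32.4% in embryos and 14.9% in eggs. In the 3 technical libraries the CV was 39.2% for tmsb4x copy B, 4.65% for pfn1 copy B and 25.1% for actb copy A. The part of technical noise in the spread between animals was not tested. Over the 8 copies of actb, actg1, cfl1 and pfn1, a set picked after the values were seen, embryo 3 was the highest embryo in 7 and embryo 5 the lowest in 6. Among the eggs, egg 3 was highest in 3 of these (cfl1 copy A and both pfn1 copies) and lowest in 3 (both actb copies and actg1 copy B).

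The technical libraries are of the same stage and played no part in choosing the names, so their levels were tested against the single embryos, whose own values enter both comparisons. Both actg1 copies and cfl1 copy B were lower in the technical libraries, and no named member was higher. Actg1 copy A had 90.9, 111 and 114 FPKM in the technical libraries, against 192 to 266 FPKM in embryos, a log2 difference of -1.11 (SE 0.17; limma adjusted p = 0.0252). Actg1 copy B had 63.1, 86.1 and 73.4 FPKM in the technical libraries, against 107 to 169 FPKM in embryos, a log2 difference of -0.93 (SE 0.21; limma adjusted p = 0.0427). Cfl1 copy B had 158, 122 and 168 FPKM in the technical libraries, against 241 to 389 FPKM in embryos, a log2 difference of -1.11 (SE 0.19; limma adjusted p = 0.0253). In all 3 models every technical library was below every embryo.

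The actb copies did not pass the threshold. Copy A had 193, 321 and 294 FPKM in technical libraries, against 306 to 684 FPKM in embryos (log2 difference -0.72, SE 0.28; limma adjusted p = 0.14). Copy B had 60.2, 67.5 and 85.9 FPKM in technical libraries, against 68.7 to 132 FPKM in embryos (log2 difference -0.39, SE 0.24; limma adjusted p = 0.342). The sum of the 4 actin models was 520 ± 98.3 FPKM in technical libraries (SD, n = 3) and 921 ± 214 FPKM in embryos (SD, n = 5), with no overlap. Cfl2 copy A was above every embryo in the technical libraries, with 10.6, 18.1 and 15.97 FPKM from 6, 6 and 9 reads, and did not pass the threshold (log2 difference +1.11, SE 0.33; limma adjusted p = 0.0767). Tmsb4x copy A, with 14.7, 25.2 and 74.1 FPKM from 1, 1 and 5 reads in technical libraries, did not pass either (log2 difference +1.77, SE 0.95; limma adjusted p = 0.271). The log2 differences of the other 8 models ran from -1.13 for pfn2 copy B to +0.50 for pfn1 copy A.

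So 3 of the 15 models with a member name that averaged 1 FPKM or more were lower and 0 higher in technical libraries, against 2.69% lower and 2.21% higher of all 19373 gene models tested. Both actg1 copies are among the 3. The split of short reads between the actin models is uncertain, so these copies may not be separate observations. The 3 calls were fragile. Leaving out any of embryo 1, embryo 4, technical 1 or technical 2 ended all of them, leaving out embryo 2 those of actg1 copy B and cfl1 copy B, and leaving out embryo 3 or technical 3 that of actg1 copy B. A replicate block ended all 3 calls as well (limma adjusted p = 0.0638 for actg1 copy A, 0.0930 for actg1 copy B and 0.0622 for cfl1 copy B), and testing without a filter ended that of actg1 copy B (limma adjusted p = 0.0659). Their adjusted p ranged from 0.0164 to 0.0765, from 0.0203 to 0.128 and from 0.0161 to 0.0784 over 12 alternatives for actg1 copy A, actg1 copy B and cfl1 copy B, and the log2 differences stayed between -1.25 and -0.82. Technical libraries had fewer reads than any embryo, and the part of depth or of library preparation in these differences was not tested. Nothing says that the technical libraries are separate animals, so these p-values measure a spread that may be technical.

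**Figure D4:**
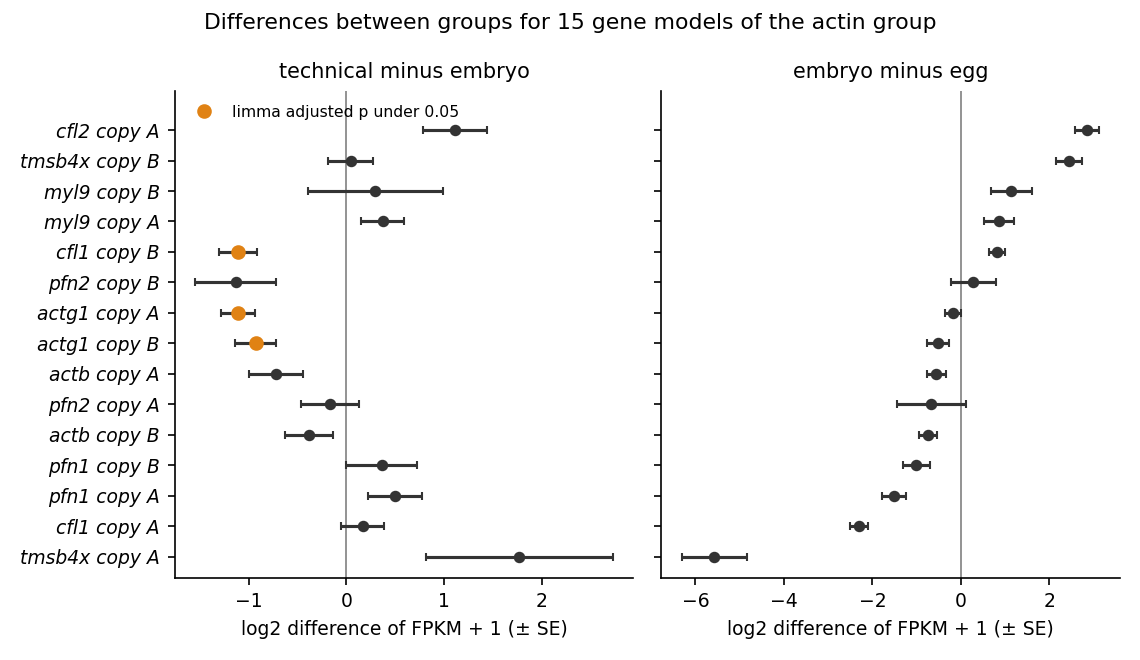
Log2 difference of FPKM + 1 (x axis, ± SE) for the 15 gene models with a member name that averaged 1 FPKM or more, technical minus embryo on the left and embryo minus egg on the right. Orange points passed a limma adjusted p under 0.05 and are marked only on the left. There the technical values did not guide the choice of names, but the embryo values did. Copies A and B of tmsb4x lie at -5.58 and +2.44 on the right, and those of cfl1 at -2.30 and +0.82.

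The rest of the actin machinery was read from 6 lists of 160 gene names, which matched 319 gene models outside the group, 197 of which averaged 1 FPKM or more. Of these 197, 67 were higher and 50 lower in embryos (limma, adjusted p under 0.05), shares of 34.0% and 25.4% beside 31.6% and 25.2% of all gene models. Their median log2 difference was +0.17, beside +0.12 for all. The split rests on the scaling. With each library rescaled to sum to 1000000, it was 5 higher and 67 lower, and over all gene models 1560 higher and 7126 lower instead of 6123 and 4879. The lists, like the members, were chosen with earlier results of these data known. The calls and p-values given for them here and below therefore describe these libraries and are no independent support.

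Among the other actins, 2 of 5 tested models were lower and 0 higher in embryos. Actr1a, the dynactin filament subunit centractin, averaged 14.5 ± 2.17 FPKM in embryos and 33.4 ± 3.99 FPKM in eggs (SD, n = 5 each; log2 difference -1.15, limma adjusted p = 8.44e-05). Among other monomer-binding and recycling proteins, 3 of 16 were higher and 5 lower. The lowest was an unnamed model listed with tmsb15a, another beta-thymosin, which averaged 2.68 ± 0.75 FPKM in embryos and 37.5 ± 6.88 FPKM in eggs (log2 difference -3.39, limma adjusted p = 1.16e-07). A model of wdr1, which helps cofilin to disassemble filaments, averaged 27.5 ± 2.17 FPKM in embryos and 46.7 ± 11.3 FPKM in eggs (log2 difference -0.71, limma adjusted p = 0.00593), and a second, more abundant wdr1 model was higher in embryos, at 57.97 ± 9.54 FPKM against 39.8 ± 8.66 FPKM in eggs (log2 difference +0.54, limma adjusted p = 0.0228). No model that averaged 10 FPKM or more in these 2 lists was higher in embryos without overlap.

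Of the nucleation and elongation list, 18 of 61 models were higher and 19 lower. Both models of actr3, the Arp3 subunit of the branching complex Arp2/3, were lower in embryos, at 48.6 ± 17.7 FPKM against 335 ± 72.4 FPKM in eggs (log2 difference -2.82, limma adjusted p = 5.11e-06) and at 6.74 ± 4.18 FPKM against 37.2 ± 8.74 FPKM in eggs (log2 difference -2.41, limma adjusted p = 4.53e-05). A model of arpc4, another subunit of that complex, was higher in embryos, at 28.4 ± 7.54 FPKM against 7.15 ± 1.34 FPKM in eggs (log2 difference +1.83, limma adjusted p = 2.59e-05), and a second, more abundant arpc4 model did not pass, at 45.7 ± 5.62 FPKM against 39.1 ± 10.4 FPKM in eggs (log2 difference +0.25, limma adjusted p = 0.286). A model listed with arpc5 that the gene model file calls srsf5, a splicing factor, averaged 72.5 ± 5.02 FPKM in embryos and 10.7 ± 3.31 FPKM in eggs (log2 difference +2.70, limma adjusted p = 6.35e-07). Members of the Arp2/3 complex thus differed in both directions.

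In the capping and severing list 8 of 29 were higher and 3 lower. Capza1, a subunit of the protein that caps fast-growing filament ends, averaged 52.6 ± 14.6 FPKM in embryos and 13.7 ± 5.95 FPKM in eggs (log2 difference +1.93, limma adjusted p = 0.000171). A model of eps8, which also caps filaments, averaged 19.3 ± 2.46 FPKM in embryos and 8.04 ± 4.48 FPKM in eggs (log2 difference +1.27, limma adjusted p = 0.00173), and a second eps8 model did not pass (log2 difference -0.41, limma adjusted p = 0.0664). The crosslinking and tropomyosin list had 23 of 40 higher and 8 lower, with a median of +0.89. Pls3, the bundling protein plastin 3, averaged 94.2 ± 19.0 FPKM in embryos and 13.6 ± 5.26 FPKM in eggs (log2 difference +2.76, limma adjusted p = 4.32e-06), and a model listed with rdx that the gene model file calls msn, both membrane linkers, averaged 22.7 ± 7.58 FPKM in embryos and 3.66 ± 2.28 FPKM in eggs (log2 difference +2.55, limma adjusted p = 0.000827). In the other direction, flna, the crosslinker filamin A, averaged 10.9 ± 1.92 FPKM in embryos and 45.2 ± 5.24 FPKM in eggs (log2 difference -1.96, limma adjusted p = 2.22e-06). Anln, the cytokinesis scaffold anillin, went in both directions. An unnamed model that lists anln among its names averaged 12.6 ± 2.04 FPKM in embryos and 53.4 ± 20.5 FPKM in eggs (log2 difference -1.95, limma adjusted p = 2.82e-05), whereas the model named anln averaged 59.0 ± 18.5 FPKM in embryos and 19.3 ± 5.83 FPKM in eggs (log2 difference +1.55, limma adjusted p = 0.000342).

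Of the list of myosin II and its regulators, 15 of 46 were higher and 13 lower. Myh9, the heavy chain of a non-muscle myosin II, averaged 33.1 ± 9.46 FPKM in embryos and 5.25 ± 0.97 FPKM in eggs (log2 difference +2.42, limma adjusted p = 3.37e-06). The slingshot phosphatases, which activate cofilin, differed in direction. Ssh3 averaged 16.5 ± 4.33 FPKM in embryos and 5.89 ± 2.09 FPKM in eggs (log2 difference +1.37, limma adjusted p = 0.000709), and ssh2 averaged 12.8 ± 2.14 FPKM in embryos and 35.6 ± 4.79 FPKM in eggs (log2 difference -1.41, limma adjusted p = 3.10e-05). The second models of anln, wdr1, arpc4 and eps8 were added after their values were seen. Each of the other models named here that was higher in embryos lost its call under the rescaling to 1000000 and kept it in the other 17 fits, and each that was lower kept it in all 18.

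**Figure D5:**
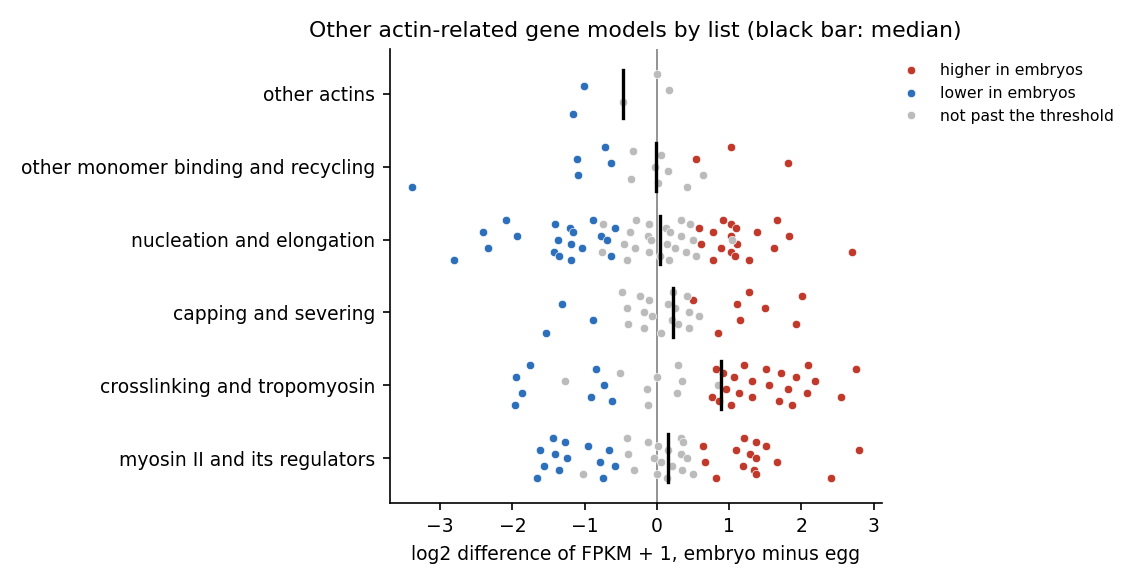
Log2 difference of FPKM + 1, embryo minus egg (x axis), for 197 gene models of 6 lists of other actin-related genes (rows), with a dot for each model. Red dots were higher and blue dots lower in embryos (limma, adjusted p under 0.05), grey dots did not pass, and the black bar is the median of the list. The median lies at +0.89 for crosslinking and tropomyosin and at -0.47 for other actins.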

How the data were processed

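RNA depleted of ribosomal RNA was sequenced from 5 embryos, 3 technical libraries and 5 eggs. The authors aligned single-end reads to the JGI *X. laevis* assembly (gmap) and quantified the gene models (Cufflinks 2.1.1). Cuffdiff is also named among the processing tools, without a version. The deposited FPKM values were used as given. Other deposited columns hold model lengths and coordinates, and a second table holds the authors' merged, depth-matched FPKM per stage. Whether counting used the strand is not given in the sources used here. No column of values was left without a sample (0 unmapped).

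Gene models were matched by name. Log2(FPKM + 1) was tested between groups using limma 3.58.1 under R 4.3.3, for gene models averaging 1 FPKM or more across the libraries compared, with a trend in the prior variance, Benjamini-Hochberg adjustment over all 19373 gene models and a threshold of 0.05. The fit was tested on simulated data. A pseudocount of 1 understates differences of low genes. Reads were recovered from FPKM steps with effective lengths for fragments of mean 200 and SD 80 bases. Between 88.5% and 91.8% of values below 20 reads, in models of at least 500 bases, came within 0.1 of a whole read. Limits at 0 are 3 reads and cover counting error only.

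The members and lists were chosen with earlier results of these data known. All 36 members are accounted for, and those averaging 10 FPKM or more are given per library. In each list, the 2 models with the largest difference in each direction were named among those past the threshold, averaging 10 FPKM or more and without overlap between groups. 1 gene model that met this rule is not reported here. The other alternatives were a pseudocount of 0.1, no filter or a minimum mean of 5 FPKM, other scalings, the merged profile, sums by name, a replicate block and leaving out each library. A rescaling over gene models of at least 500 bases that stay under 10000 FPKM, and leaving out eggs 3 and 5 together, were added after the data were seen. Follicle and blood marker lists were also read: 0 of 3 tested follicle models differed between embryos and eggs, and 1 of 1 tested blood model was lower in embryos. That blood model is listed with hba1 but unnamed in the gene model file, with means of 35.6 FPKM in embryos and 125.6 FPKM in eggs. Of all 19 blood models, 13 were at 0 in every embryo and 17 in every egg.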

Additional observations from a re-analysis of the deposited data

Results flagged for a closer look

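Groups of 5 libraries (member models averaging 1 FPKM or more, in embryos and in eggs) were screened by Dixon's criterion of 0.71. In 41 groups, 3 values lay far from the others of their group. Chance flags about 1 in 20 groups, so flags from chance alone are likely among 41. The unnamed model of 486 bases on scaffold 000403120 had 149141 FPKM in egg 5, against 433 to 1494 FPKM in the other eggs. Myl9 copy B had 6.35 FPKM (19 reads) in embryo 1, against 0.935 to 2.04 FPKM in the other embryos. It also had 2.48 FPKM (5 reads) in egg 4 and 0 in the other eggs, a case where any value above 0 is flagged. Why these libraries stand apart was not tested.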

How the results depend on the processing

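Counts between embryos and eggs stayed within 1.5 times under the alternatives run, with these exceptions. Rescaling each library to sum to 1000000 moved the calls higher in embryos to 5 of the actin-related lists and 1560 of all gene models. Among models with a member name in the gene model file, it left 1 with every embryo above every egg instead of 3. It turned cfl1 copy B to -0.50 and myl9 copy A to -0.20. The actin models moved too, to -1.88 and -2.04 for actb copies A and B and to -1.50 and -1.83 for actg1 copies A and B. With models shorter than 500 bases or reaching 10000 FPKM left out of the sum, the median of all gene models moved by -0.19 instead of -1.10, with 5255 calls higher and 5656 lower. Summing FPKM over all models of a name turned cfl1 copy B to -0.41 and tmsb4x copy B to -1.97. These sums hold the other copy and also models without a member name, such as the rpl30 model for cfl1. Over copies A and B alone the difference was -0.11 for cfl1 and -2.65 for tmsb4x. Without eggs 3 and 5, every embryo was below every egg in 7 models with a member name instead of 4.

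Replicate numbers did not pair the libraries (correlations of -0.02 to 0.07). With the replicate block, 5985 gene models were higher and 4676 lower in embryos, and 63 and 48 of the lists. For technical libraries against embryos the block left 0 gene models higher, 0 lower and 0 members lower (limma), with 5020 at an unadjusted p under 0.05, and without a filter there were 155 higher and 240 lower, and 1 member, actc1 copy B, was higher.

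Leaving out 1 library gave 3 to 1402 gene models higher and 7 to 909 lower in technical libraries (429 and 522 with all), with 0 to 1 member higher and 0 to 3 lower. The totals were 10 without embryo 4 and 2311 without embryo 5. Between embryos and eggs it gave 5514 to 6253 higher and 4453 to 5070 lower, and 59 to 66 and 43 to 51 of the lists. Among models with a member name in the gene model file, every embryo was above every egg in 3 to 4 and below in 4 to 6. The median CV was 21.9% to 28.1% in embryos and 21.6% to 32.5% in eggs. Myl9 copy B could not be fitted without embryo 1, where its mean fell under 1 FPKM. Low read numbers limit cfl2, myl9, pfn2 and tmsb4x copy A in embryos. With a pseudocount of 0.1 the difference was +5.96 for cfl2 copy A and +3.23 for myl9 copy B.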

Other observations

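The gene models whose levels most resembled those of single members over the 10 single libraries are given as a description, without a test, since all points share the contrast between embryos and eggs. Among 7971 named gene models averaging 10 FPKM or more, those closest to actb copy A by Pearson's r of log2(FPKM + 1) were sgsm3 (r = 0.972), recql (r = 0.964) and abl2 (r = 0.962). Those closest to cfl1 copy B, the monomer-binding model with the highest mean, were letm1 (r = 0.963), esr-5 (r = 0.960) and a model listed with synpo2l that is unnamed in the gene model file (r = 0.959). The esr-5 model, of the hes family, averaged 64.4 FPKM in embryos and 4.82 FPKM in eggs.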
